A study of Mus musculus with 59 samples.

Results

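Transcript levels of 9 genes of interleukin-6 (IL-6) family signaling were followed in 3 mouse muscles. The genes were taken by symbol from a table of 47643 symbols. They comprise 4 receptor chains (Il6ra, Il6st, Osmr and Lifr), the transcription factor gene Stat3, its feedback inhibitor gene Socs3, and 3 genes that Stat3 is known to induce (Cebpd, Cebpb and Pim1). All 9 passed the filter on low values in every comparison. Cytokines of the IL-6 family bind a ligand-specific chain, such as the IL-6 receptor (Il6ra), the oncostatin M receptor (Osmr) or the leukemia inhibitory factor receptor (Lifr), which assembles with the shared chain gp130 (Il6st). JAK kinases bound to these chains then phosphorylate STAT3, which enters the nucleus and induces its target genes, and SOCS3 binds gp130 and restrains the signal. In skeletal muscle the pathway is known for its part in inflammation, regeneration and the wasting that accompanies cancer.

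The libraries came from female NCI Ath/nude mice aged 4 months, which lack mature T cells and carried human melanoma cells inoculated into the flank. The xenograft was either a cachectic melanoma, which causes muscle loss, or a non-cachectic one, and the melanoma groups therefore differed in tumor line. Diaphragms came from mice injected intraperitoneally with recombinant Fibcd1 (rFibcd1), a secreted protein studied for its effect on myofiber size, or with a mock solution of BSA in PBS. There were 10 cachectic mock, 10 cachectic rFibcd1, 9 non-cachectic mock and 10 non-cachectic rFibcd1 diaphragms. Tibialis anterior (TA) and soleus were each represented by 5 libraries per melanoma, without a treatment in their labels. No group was free of a tumor, so every comparison is between tumor bearers. Libraries were taken as separate samples, and p-values measure only the spread between them.

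Levels are given in TPM, a measure of transcript abundance that is scaled to gene length and to a total of 1000000 in each library, so read depth is unknown. Between 16436 and 19456 symbols were above 0 per library. Myosin genes matched the labels: Myh4 (fast fibers) was at least 7593 TPM in every TA library and Myh7 (slow fibers) at least 4288 TPM in every soleus library, although soleus cachectic library 7 also held Myh4 at 4989 TPM. A non-cachectic mock diaphragm (library 64) held liver transcripts, with Alb at 5724 TPM. The sum of 8 liver markers was also high in cachectic mock library 32 (2875 TPM, group median 236). It was high as well in cachectic rFibcd1 library 3 (1872 TPM, group median 209). The libraries also fell into a high and a low state of the processed pseudogene Pcna-ps2 (at least 5.595 TPM or at most 0.428 TPM in the diaphragm). All cachectic TA and soleus libraries were in the high state and all non-cachectic ones in the low state, so that state and melanoma cannot be told apart there. In the diaphragm 9 of 10 cachectic mock, 8 of 10 cachectic rFibcd1, 3 of 9 non-cachectic mock and 6 of 10 non-cachectic rFibcd1 libraries were in the high state. Mitochondrially encoded genes held a lower mean share of TPM with the cachectic melanoma (38.1% against 47.5% in mock diaphragm, 38.8% against 48.5% in TA and 30.5% against 41.1% in soleus), and the median change of all genes tested was above 0.

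The first question was whether the receptors, Stat3 and its targets differed between the melanomas. In mock-injected diaphragm 8 of the 9 genes were higher with the cachectic melanoma and Lifr did not pass the test (limma on log2(TPM + 1), Benjamini-Hochberg adjusted p under 0.05). Of all 13426 genes tested there, 33.5% were called, 30.9% as higher. The median log2 difference of the 9 genes was 1.05, against 0.20 for all genes. All 9 genes were called by Dunn tests, as were 40.5% of all genes, and all 9 when only the 2 groups were fitted (50.1%), but 7 with library state as a term (15.3%), without Lifr and Pim1. In TA 8 of 9 were higher, where 60.2% of 11105 genes were called and 56.4% were higher, and the medians were 2.00 and 0.41. In soleus 7 of 9 were higher and Lifr was lower, where 25.1% of 11957 genes were called, 17.5% as higher and 7.54% as lower, and the medians were 1.15 and 0.09. When libraries were rescaled by median ratios, the medians of all genes were 0.01, -0.01 and 0.01 and those of the 9 genes 0.84, 1.63 and 1.06. The calls over all genes then became more even, with 992 of 2121 higher in mock diaphragm in place of 4143 of 4501, 2043 of 4476 in TA in place of 6260 of 6680, and 1820 of 3350 in soleus in place of 2098 of 2999. Of the 9 genes, the same numbers were called under rescaling in diaphragm and soleus, whereas in TA 7 were higher and Lifr was lower. In bulk tissue, more cells that carry a transcript and more transcript per cell cannot be told apart.

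**Figure D1:**
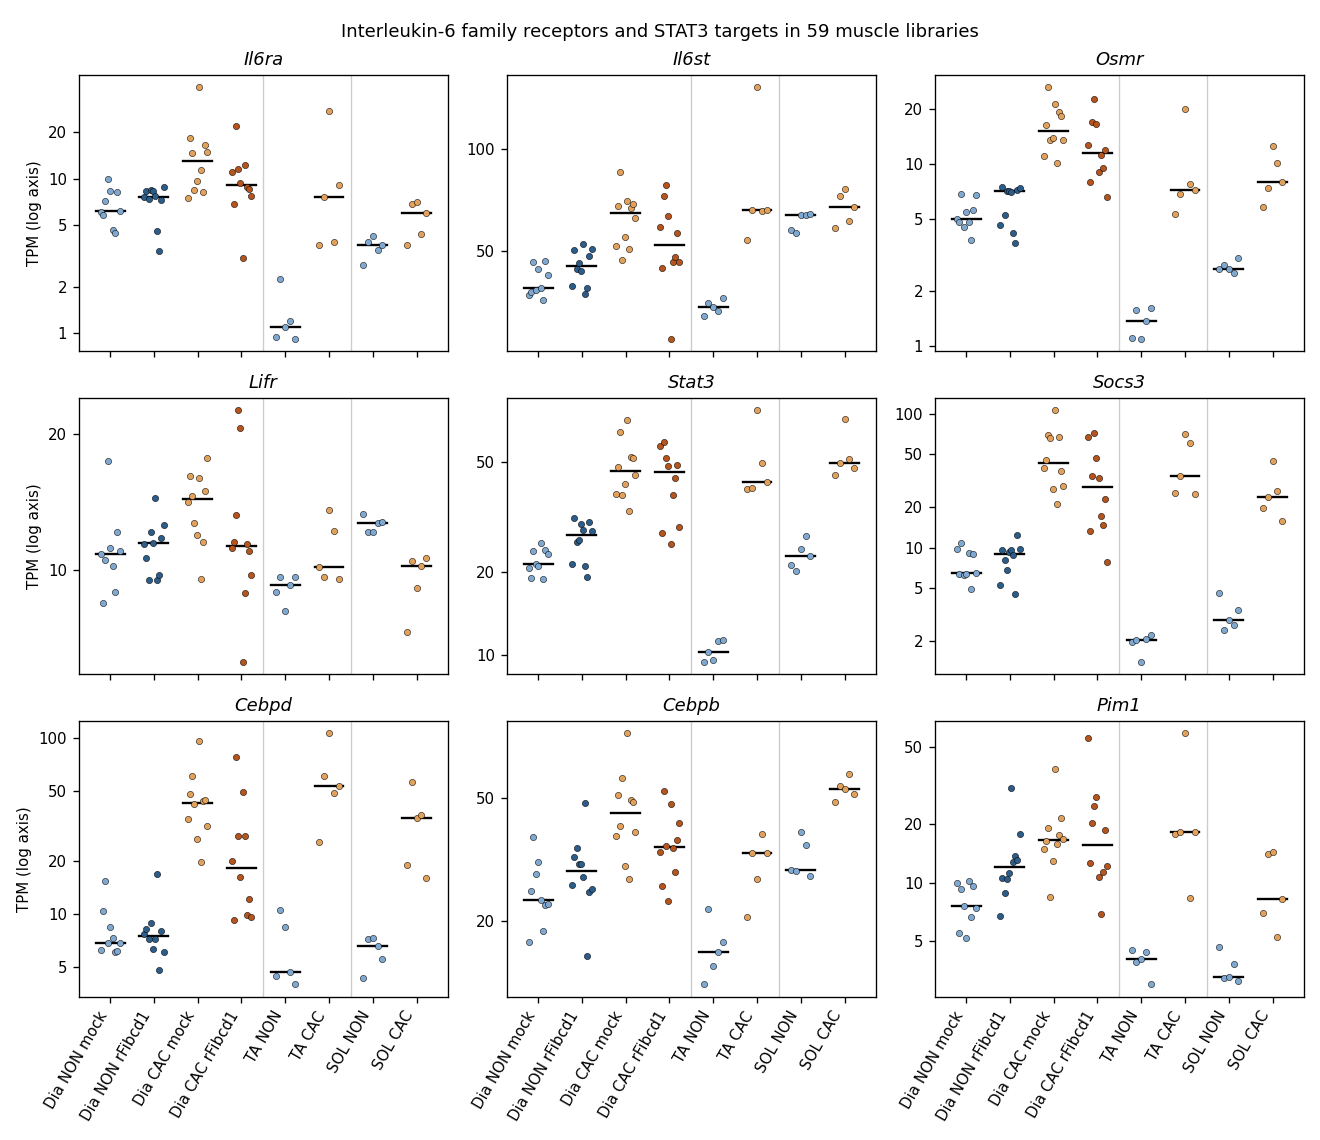
Level of each of the 9 genes in all 59 libraries (TPM, log axis), one panel per gene, with libraries as points and the group median as a bar (Dia, diaphragm; SOL, soleus; NON, non-cachectic; CAC, cachectic melanoma). Socs3 spanned 4.93 to 10.8 TPM in non-cachectic mock diaphragm and 21.1 to 106 TPM in cachectic mock diaphragm, whereas Lifr overlapped between the melanomas in diaphragm and in TA.

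Socs3, whose product binds gp130 and limits further STAT3 activation, changed most of the 9 genes in each muscle. In mock diaphragm its lowest, median and highest levels were 4.93, 6.49 and 10.8 TPM with the non-cachectic melanoma (n = 9) and 21.1, 42.5 and 106 TPM with the cachectic one (n = 10). The lowest cachectic library therefore lay above the highest non-cachectic one. Socs3 was 5.47-fold higher (log2 difference 2.45, SE 0.300, limma adjusted p = 1.49e-06) and had the 18th largest increase of the 13426 genes tested. Folds here and below are of TPM + 1, which understates changes of low levels. The ratio of the mean TPM of Socs3 was 6.60 in mock diaphragm. In TA the 5 non-cachectic libraries were at 1.98, 2.05, 1.41, 2.10 and 2.24 TPM and the 5 cachectic libraries at 25.7, 34.4, 70.4, 60.6 and 25.0 TPM. The groups were far apart, with a 13.7-fold difference in TPM + 1 (log2 difference 3.78, SE 0.267, limma adjusted p = 5.34e-06), the 7th largest increase of 11105. The ratio of the mean TPM in TA was 22.1. In soleus the levels were 4.57, 2.45, 2.88, 2.66 and 3.43 TPM with the non-cachectic melanoma and 19.8, 23.7, 44.3, 26.3 and 15.8 TPM with the cachectic one. These did not overlap either, and the difference was 6.16-fold (log2 difference 2.62, SE 0.233, limma adjusted p = 4.27e-05).

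The Socs3 gene (chr11:117966079-117970047, minus strand, GRCm38 with GENCODE M21) was the only one of the 8 genes with a matched window to hold a STAT-type motif in its RefSeq promoter window (250 bases before to 50 after a RefSeq start, GRCm38.p6). It is shown because Socs3 had the largest change, with the motif TTCNNNGAA in capitals. The stretch lies at chr11:117969452-117969616, read on the minus strand. It is within the annotated span of the gene and in no annotated exon. The first base of the motif is 154 bases before the RefSeq start.
Socs3: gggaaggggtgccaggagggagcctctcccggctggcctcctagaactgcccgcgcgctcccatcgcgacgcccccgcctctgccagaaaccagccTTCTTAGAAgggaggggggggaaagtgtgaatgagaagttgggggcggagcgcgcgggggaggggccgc
The motif reads the same on both strands. It was in 2726 of all 32851 windows (8.3%), and its stricter form TTCCNGGAA, a subset of it, in 377 (1.15%) and in no window of the 8 genes. Windows were matched for 8 of the 9 genes, with a pair of windows each for Lifr and Pim1, and Cebpd was not matched. No binding was measured, so the motif is a description of letters only.

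Among the receptor chains, Osmr changed most in mock diaphragm and soleus. Its lowest, median and highest levels in mock diaphragm were 3.81, 4.95 and 6.84 TPM with the non-cachectic melanoma and 10.1, 15.1 and 26.2 TPM with the cachectic one. These ranges did not overlap, and the difference was 2.69-fold (log2 difference 1.43, SE 0.172, limma adjusted p = 1.49e-06). In TA the non-cachectic libraries were at 1.10, 1.58, 1.10, 1.37 and 1.62 TPM and the cachectic ones at 5.30, 6.79, 19.9, 7.70 and 7.12 TPM. Every cachectic TA library was above every non-cachectic one, with library 8 far above the rest. The difference was 2.00 on the log2 scale (SE 0.264, limma adjusted p = 0.000343), or 1.71 without library 8. In soleus Osmr was at 2.66, 2.79, 2.65, 2.52 and 3.05 TPM against 5.80, 7.35, 12.47, 10.1 and 7.91 TPM, again without overlap, a 2.54-fold difference (log2 difference 1.34, SE 0.160, limma adjusted p = 0.000275).

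Il6st, which encodes the chain shared by the family, was the most abundant of the 4 receptor genes per length in every group. In mock diaphragm its lowest, median and highest levels were 35.6, 38.7 and 46.7 TPM with the non-cachectic melanoma and 46.8, 64.5 and 85.3 TPM with the cachectic one. The ranges just failed to touch, and Il6st was 1.51-fold higher (log2 difference 0.59, SE 0.124, limma adjusted p = 0.000614). In TA it was at 32.0, 34.9, 34.0, 33.1 and 36.1 TPM against 53.8, 66.1, 152, 65.6 and 66.0 TPM. The difference there was 1.12 on the log2 scale (SE 0.225, limma adjusted p = 0.00321), and 0.86 without library 8, which held the highest value. In soleus Il6st was at 57.6, 56.4, 63.9, 63.9 and 64.1 TPM against 58.2, 72.3, 76.2, 60.9 and 67.2 TPM, ranges that overlapped, and it did not pass the test (log2 difference 0.12, SE 0.089, 95% interval from -0.07 to 0.32, limma adjusted p = 0.330).

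Il6ra, the chain that binds IL-6 itself, was at 4.42, 6.22 and 9.95 TPM (lowest, median and highest) in non-cachectic mock diaphragm and at 7.55, 13.0 and 39.2 TPM in cachectic mock diaphragm. The groups overlapped, and Il6ra was higher by 0.91 on the log2 scale (SE 0.237, limma adjusted p = 0.00386). In TA the non-cachectic libraries were at 0.941, 2.23, 1.08, 1.19 and 0.918 TPM and the cachectic ones at 3.71, 7.63, 27.5, 3.89 and 9.06 TPM. These did not overlap, and the log2 difference of 2.00 (SE 0.406, limma adjusted p = 0.00329) was 1.59 without library 8. In soleus the levels were 2.77, 3.89, 4.23, 3.45 and 3.73 TPM against 3.73, 6.88, 7.11, 4.42 and 6.03 TPM. This was a small difference between overlapping groups (log2 difference 0.50, SE 0.160, limma adjusted p = 0.0395), and the call was lost in 8 of the 10 fits that each left out 1 library, with adjusted p up to 0.0955, among them the fit without soleus cachectic library 7 (0.43, adjusted p = 0.0865).

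Lifr, the receptor chain for leukemia inhibitory factor, did not follow the other receptor genes. In mock diaphragm its lowest, median and highest levels were 8.42, 10.8 and 17.5 TPM with the non-cachectic melanoma and 9.54, 14.4 and 17.7 TPM with the cachectic one. The ranges almost coincided, and the log2 difference was 0.30 (SE 0.147, 95% interval from 0.00 to 0.60, limma adjusted p = 0.108). The highest non-cachectic value belonged to library 64 with its liver transcripts, without which Lifr passed the test (0.38, adjusted p = 0.0454). In TA Lifr was at 8.95, 9.66, 8.12, 9.23 and 9.66 TPM against 10.1, 9.64, 13.6, 12.2 and 9.54 TPM, an overlap in which the log2 difference of 0.24 (SE 0.121, limma adjusted p = 0.09999) did not pass the test and became -0.22 (adjusted p = 0.0463) under median-ratio scaling. In soleus it was at 13.3, 12.1, 12.1, 12.7 and 12.8 TPM with the non-cachectic melanoma and at 7.26, 10.5, 9.13, 10.2 and 10.6 TPM with the cachectic one. Every cachectic soleus library lay below every non-cachectic one (log2 difference -0.38, SE 0.102, limma adjusted p = 0.0195). Osmr (chr15:6813577-6874969, minus strand) and Lifr (chr15:7090614-7197489, plus strand) are neighbours, 215644 bases apart in GRCm38 with no protein-coding gene annotated between them.

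Stat3, the transcription factor downstream of gp130, was higher in each muscle. In mock diaphragm its lowest, median and highest levels were 19.0, 21.5 and 25.5 TPM with the non-cachectic melanoma and 33.3, 46.6 and 71.3 TPM with the cachectic one. All cachectic mock diaphragms lay above all non-cachectic ones, with a 2.10-fold difference (log2 difference 1.07, SE 0.141, limma adjusted p = 3.80e-06). In TA the levels were 9.49, 10.2, 9.61, 11.3 and 11.3 TPM against 40.2, 40.2, 77.3, 49.6 and 42.4 TPM, a 4.34-fold difference (log2 difference 2.12, SE 0.169, limma adjusted p = 1.12e-05). The cachectic TA libraries other than library 8 stood close together. In soleus Stat3 was at 21.2, 20.2, 24.2, 27.1 and 22.9 TPM against 45.01, 49.9, 72.1, 51.4 and 47.8 TPM, again without overlap (log2 difference 1.15, SE 0.128, limma adjusted p = 0.000174). Stat3 (chr11:100885098-100939540, minus strand) overlaps the neighbouring Stat5a gene in the annotation, and whether reads were counted by strand is not given in the sources used here. The same limit holds for Cebpd and Cebpb, which overlap the protein-coding genes Spidr and Tmem189 on the opposite strand. Il6ra and Pim1 overlap the antisense genes Gm42809 and Gm26885.

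Cebpd encodes C/EBPδ, an acute-phase transcription factor induced by STAT3. It was at 6.08, 6.90 and 15.4 TPM (lowest, median and highest) in non-cachectic mock diaphragm and at 19.8, 43.2 and 96.9 TPM in cachectic mock diaphragm. The groups did not overlap, and Cebpd was 4.76-fold higher (log2 difference 2.25, SE 0.296, limma adjusted p = 3.80e-06). In TA it was at 4.49, 10.6, 8.47, 4.72 and 4.00 TPM against 25.8, 61.2, 107, 48.7 and 53.7 TPM, a 7.77-fold difference (log2 difference 2.96, SE 0.336, limma adjusted p = 0.000141). In soleus the levels of 4.36, 7.20, 7.34, 6.61 and 5.58 TPM compared with 19.2, 56.6, 35.1, 36.5 and 16.2 TPM, a 4.30-fold difference (log2 difference 2.10, SE 0.289, limma adjusted p = 0.000673). Neither limb muscle showed an overlap. The related gene Cebpb, which encodes the IL-6-responsive factor C/EBPβ, changed less. Its lowest, median and highest levels were 17.2, 23.5 and 37.6 TPM against 27.5, 44.7 and 81.1 TPM in mock diaphragm, which overlapped (log2 difference 0.83, SE 0.175, limma adjusted p = 0.000641). In TA the log2 difference was 0.86 (SE 0.179, limma adjusted p = 0.00375), between overlapping levels of 12.51 to 21.96 TPM and 20.7 to 38.3 TPM, and it was 0.38 (adjusted p = 0.166) under median-ratio scaling. In soleus the levels of 27.9 to 38.96 TPM and 48.7 to 59.7 TPM did not overlap (log2 difference 0.73, SE 0.102, limma adjusted p = 0.000721).

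Pim1, a serine/threonine kinase gene induced by STAT3, was at 5.16, 7.56 and 10.2 TPM (lowest, median and highest) in non-cachectic mock diaphragm and 8.45, 16.6 and 38.5 TPM in cachectic mock diaphragm. The ranges overlapped at their ends (log2 difference 1.05, SE 0.261, limma adjusted p = 0.00272). In TA Pim1 was at 4.53, 3.91, 4.05, 4.41 and 2.99 TPM against 17.8, 18.2, 59.2, 8.33 and 18.3 TPM. The cachectic libraries were all higher but spread widely (log2 difference 2.07, SE 0.366, limma adjusted p = 0.00169), and the difference was 1.69 without library 8. In soleus it was at 4.68, 3.22, 3.26, 3.79 and 3.12 TPM against 6.94, 14.04, 14.5, 5.27 and 8.26 TPM, without overlap (log2 difference 1.15, SE 0.235, limma adjusted p = 0.00533).

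Counted over the 9 genes, the cachectic libraries lay wholly above the non-cachectic ones for 5 genes in mock diaphragm (Il6st, Osmr, Stat3, Socs3 and Cebpd), against 4.07% of all genes tested. In TA this held for 7 genes, against 49.1%, the exceptions being Lifr and Cebpb. In soleus it held for 6 genes (Osmr, Stat3, Socs3, Cebpd, Cebpb and Pim1), against 14.6%, and Lifr lay wholly below, as did 5.4%. Within the high-state diaphragm libraries alone, Socs3 averaged 54.1 TPM in 9 cachectic mock libraries and 8.23 TPM in 3 non-cachectic mock ones, Stat3 50.1 and 24.3 TPM, Osmr 17.0 and 5.71 TPM, and Cebpd 47.8 and 6.80 TPM. There 6 of the 9 genes were called higher by limma, where 5.69% of all genes were called. Il6ra (log2 difference 1.00, adjusted p = 0.0683), Pim1 (0.86, adjusted p = 0.148) and Lifr (0.34, adjusted p = 0.215) did not pass.

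Some markers of other cell types were also called in the same contrasts. Of all genes, 30.9% were called higher in mock diaphragm, 56.4% in TA and 17.5% in soleus, where 7.54% were lower. Some of the counts below were near or under these shares. In mock diaphragm 4 of 8 macrophage markers were called higher, and their summed level was 118 to 277 TPM with the non-cachectic and 199 to 687 TPM with the cachectic melanoma. In TA 6 of 6 tested macrophage markers were higher (15.02 to 36.3 against 28.6 to 185 TPM), and in soleus 1 of 7 (66.0 to 83.0 against 48.7 to 202 TPM). All 3 neutrophil markers tested in mock diaphragm (S100a8, S100a9 and Retnlg) were higher, and the sum of the 8 listed markers was 3.26 to 22.2 against 9.99 to 59.5 TPM. In TA and soleus 2 of 2 tested were higher, with sums of 1.19 to 4.03 against 7.38 to 56.4 TPM and 3.29 to 4.94 against 7.70 to 32.5 TPM. The defining neutrophil marker Ly6g did not reach 1 TPM in any library of these groups. Endothelial markers were higher for 5 of 8 in mock diaphragm, 6 of 8 in TA and 1 of 8 in soleus, and Kdr was lower in both limb muscles. Of 8 fibroblast markers 1 was higher and 1 lower in mock diaphragm, 3 higher and 1 lower in TA, and 4 lower in soleus, where their sum was 638 to 902 TPM with the non-cachectic and 253 to 759 TPM with the cachectic melanoma. Adipocyte markers were higher for 2 of 8 in mock diaphragm and 1 of 5 in TA. In mock diaphragm 0 of 8 hepatocyte, 0 of 6 mesothelial and 0 of 6 B cell markers were called. In each limb muscle 1 hepatocyte marker, 1 B cell marker and no mesothelial marker passed the filter on low values, and of these only the B cell marker Ighm was called, lower in TA. The part of these markers in the changes of the 9 genes was not tested.

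The second question was whether the melanoma difference had the same size in each muscle. It was compared between muscles within 1 limma fit of the 39 libraries without rFibcd1. The median of all genes tested was -0.18 for diaphragm minus TA, 0.12 for diaphragm minus soleus and 0.30 for TA minus soleus. Pcna-ps2 state was tied to melanoma wholly in TA and soleus and only partly in mock diaphragm. State and melanoma therefore cannot be told apart in these contrasts. Against TA, the difference in mock diaphragm was smaller for Stat3 (difference of the log2 differences -1.05, SE 0.199, adjusted p = 0.00157) and for Socs3 (-1.33, SE 0.388, adjusted p = 0.0394), 2 of the 9 genes, where 5.04% of 13501 genes were called and 4.33% were smaller in diaphragm. The Socs3 call was lost in 14 of 39 fits that left out 1 library, among them the fit without TA cachectic library 8 (-1.12, adjusted p = 0.130). Against soleus only Lifr was called (0.68, SE 0.169, adjusted p = 0.0232), where 2.52% of genes were and 1.95% in that direction, and it was lost without soleus cachectic library 6 (0.59, adjusted p = 0.0602). Between TA and soleus the difference was larger in TA for Il6ra (1.503, SE 0.481, adjusted p = 0.0268), Il6st (0.99, SE 0.230, adjusted p = 0.00364), Stat3 (0.96, SE 0.228, adjusted p = 0.00412) and Lifr (0.62, SE 0.193, adjusted p = 0.0241), 4 of the 9 genes, where 20.4% of all genes were called and 19.1% in that direction. Of these, 2 were called without TA cachectic library 8, and Il6ra (1.09, adjusted p = 0.0787) and Lifr (0.54, adjusted p = 0.0603) then no longer passed. Lifr was at 0.23 (adjusted p = 0.396) under median-ratio scaling. For Socs3 the difference between TA and soleus was 1.16 (adjusted p = 0.0589). All these calls took libraries as independent, although column numbers are shared between muscles and same-numbered libraries correlated. With the number as a replicate block, more of the 9 genes were called for diaphragm against TA and for TA against soleus. More of all genes were called too (16.2% and 42%), and the labels do not state that a number marks an animal. Of the markers, 4 of 8 macrophage (C1qa, C1qb, C1qc and Csf1r), 3 of 8 fibroblast and 2 of 8 endothelial ones also had a larger difference in TA than in soleus, and their part was not tested. Library 8 was the highest cachectic TA library for 8 of the 9 genes and the highest cachectic soleus library for 6 of 9, and it had the lowest mitochondrial share of TPM in both muscles (25.1% in TA and 24.1% in soleus).

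**Figure D2:**
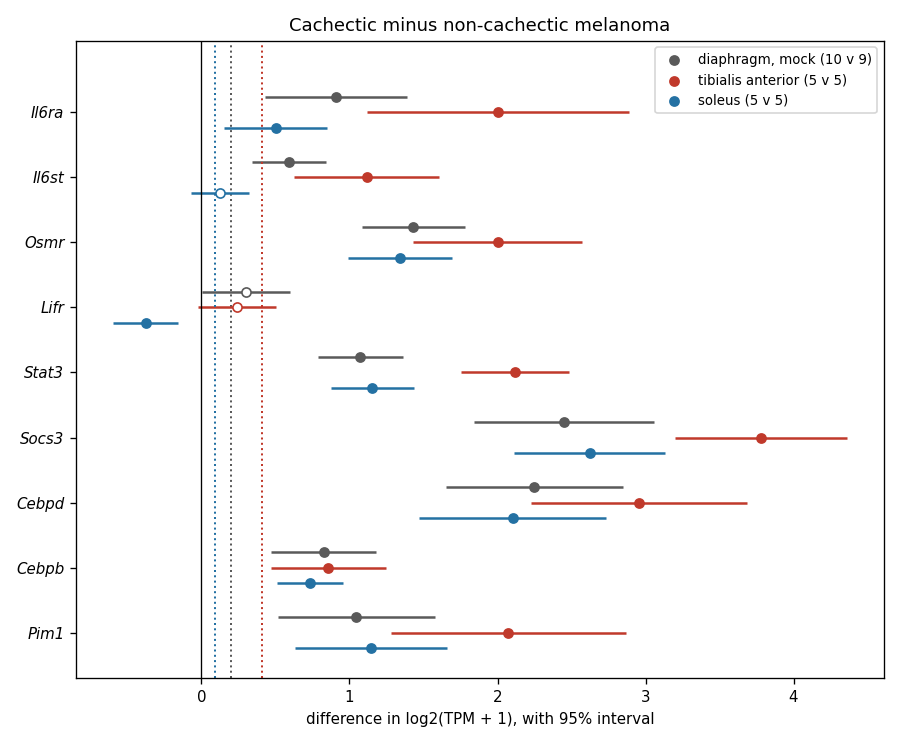
Log2 difference in level between cachectic and non-cachectic melanoma for each of the 9 genes in mock diaphragm, TA and soleus (log2(TPM + 1) scale), with 95% intervals as lines. Filled points passed the limma test, open points did not, and each dotted line is the median of all genes tested in that muscle. Socs3 was farthest to the right in each muscle (2.45 in mock diaphragm, 3.78 in TA and 2.62 in soleus) and Lifr lay at 0.30, 0.24 and -0.38.

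The muscles also differed in their levels with the non-cachectic melanoma. Diaphragm exceeded TA for 6 of the 9 genes, where 72.5% of all genes were called and 64% were higher: Il6ra (6.76 ± 1.82 TPM, SD, n = 9, against 1.27 ± 0.544, n = 5, log2 difference 1.76, limma adjusted p = 3.53e-06), Socs3 (1.53, adjusted p = 9.66e-06), Osmr (1.404, adjusted p = 1.16e-07), Stat3 (1.01, adjusted p = 1.21e-07), Pim1 (0.82, adjusted p = 0.00794) and Cebpb (0.58, adjusted p = 0.0049). Pim1 (0.34, adjusted p = 0.212) and Cebpb (0.03, adjusted p = 0.906) did not pass under median-ratio scaling. Diaphragm exceeded soleus for Socs3 (1.04), Pim1 (0.93) and Osmr (0.73), and Il6st was lower in diaphragm (log2 difference -0.58, 40.7 ± 4.19 against 61.2 ± 3.84 TPM, limma adjusted p = 0.0015), 4 of 9 where 38.8% of genes were called, 16.8% as higher and 22.1% as lower. TA was below soleus for Stat3 (-1.08), Il6ra (-1.04), Cebpb (-0.94), Il6st (-0.83), Osmr (-0.67) and Lifr (-0.43), 6 of 9 where 69.5% were called and 63.9% were lower. Of these only the Stat3 call was made under median-ratio scaling (log2 difference -0.50, adjusted p = 0.000354). For Socs3, the order from the highest level was therefore diaphragm, soleus and TA (7.70 ± 2.01, 3.20 ± 0.848 and 1.96 ± 0.317 TPM), where the difference between TA and soleus did not pass the test (log2 difference -0.49, limma adjusted p = 0.162) although their libraries did not overlap (1.41 to 2.24 TPM in TA and 2.45 to 4.57 TPM in soleus). In the same contrast 8 of 8 macrophage, 8 of 8 fibroblast, 8 of 8 endothelial, 6 of 8 adipocyte, 7 of 8 hepatocyte, 6 of 6 mesothelial and 4 of 6 B cell markers were higher in diaphragm than in TA. Against soleus 7 of 8 macrophage, 6 of 8 fibroblast and 6 of 6 mesothelial markers were higher in diaphragm. TA was below soleus for 7 of 8 macrophage, 8 of 8 fibroblast, 8 of 8 endothelial and 7 of 8 adipocyte markers, and the part of these markers in the levels of the 9 genes was not tested. With the cachectic melanoma the group means of Socs3 were 50.8 ± 26.1 TPM in mock diaphragm, 43.2 ± 21.0 in TA and 26.0 ± 10.97 in soleus.

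The proportion of the shared chain to the IL-6-binding chain differed between muscles as well. The ratio of Il6st to Il6ra, both per length, was 6.33 ± 1.37 (SD, n = 9) in non-cachectic mock diaphragm, 17.2 ± 2.57 (n = 5) in non-cachectic soleus and 29.6 ± 8.87 (n = 5) in non-cachectic TA. With the cachectic melanoma it was 5.01 ± 1.78 (n = 10), 12.4 ± 2.24 (n = 5) and 10.6 ± 4.87 (n = 5). The TA ratio ran from 15.7 to 39.3 with the non-cachectic and from 5.53 to 16.9 with the cachectic melanoma, and the ranges of the melanomas overlapped in every muscle. The ratio was described and not tested.

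**Figure D3:**
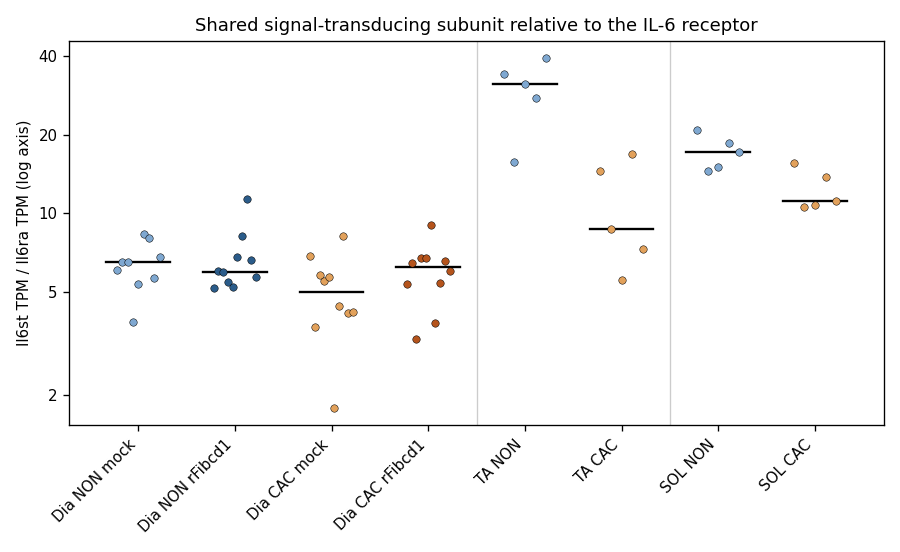
Ratio of Il6st to Il6ra TPM in each of the 59 libraries by group (log axis), with group medians as bars (Dia, diaphragm; SOL, soleus; NON, non-cachectic; CAC, cachectic). Non-cachectic TA libraries lay at 15.7 to 39.3 and all diaphragm mock libraries at 8.33 or below.

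The third question was whether rFibcd1 altered these genes in the diaphragm. With the cachectic melanoma no member passed the test of rFibcd1 against mock, where 0.0447% of 13426 genes (6) did and 1412 had an unadjusted p under 0.05, and Dunn tests called 0 genes. Cebpd was nearest, with its lowest, median and highest levels at 9.26, 18.2 and 78.4 TPM with rFibcd1 (n = 10) against 19.8, 43.2 and 96.9 TPM with mock. Its log2 difference was -0.99 (SE 0.288, 95% interval from -1.57 to -0.40, limma adjusted p = 0.241). The ranges overlapped broadly. Cebpd passed in the high-state libraries alone (-1.31, adjusted p = 0.0243), where 5.57% of all genes were called, and without cachectic rFibcd1 library 3 (-1.20, adjusted p = 0.0269, with 127 genes called in all). That library had the highest sum of liver markers in its group (1872 TPM), and their part was not tested. Socs3 was at 7.77, 28.3 and 72.0 TPM with rFibcd1 against 21.1, 42.5 and 106 TPM with mock (log2 difference -0.75, SE 0.292, 95% interval from -1.34 to -0.16, limma adjusted p = 0.356). Il6ra (-0.47), Osmr (-0.39), Cebpb (-0.33), Il6st (-0.23), Lifr (-0.19), Stat3 (-0.19) and Pim1 (0.00) had adjusted p from 0.400 to 0.999. The median of the 9 genes was -0.33, against 0.03 for all genes.

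With the non-cachectic melanoma rFibcd1 again gave no call among the 9 genes, where 0.417% of all genes (56) were called and 2332 had an unadjusted p under 0.05, and Dunn tests called 14 genes, none of the 9. Pim1 was at 6.71, 12.02 and 31.0 TPM with rFibcd1 (n = 10) and 5.16, 7.56 and 10.2 TPM with mock (log2 difference 0.64, SE 0.261, limma adjusted p = 0.261), and it passed when only these 2 groups were fitted (adjusted p = 0.0354), a fit in which 19.6% of all genes were called. The melanoma difference within the rFibcd1 diaphragms was called for 4 of 9 genes, where 9.11% of all genes were called and 7.14% were higher: Socs3 (1.59, SE 0.292, limma adjusted p = 0.00263), Cebpd (1.28, SE 0.288, adjusted p = 0.00519), Osmr (0.88, SE 0.167, adjusted p = 0.00263) and Stat3 (0.66, SE 0.137, adjusted p = 0.00323). In that contrast 3 of 8 macrophage markers (Fcgr1, C1qb and C1qc) were also higher and the endothelial marker Kdr was lower, and their part was not tested. All 9 genes overlapped between those groups, against 0.0521% of all genes that lay wholly higher, as with Socs3 at 4.53 to 12.499 TPM against 7.77 to 72.0 TPM. None of the 4 was called in high-state libraries alone (adjusted p from 0.272 to 0.297) or by Dunn tests (0.101 to 0.154), settings in which no gene of the table was called. The test of the difference itself, the interaction of melanoma and rFibcd1, called none of the 9 genes (log2 values from -0.97 for Cebpd to -0.22 for Lifr, limma adjusted p from 0.548 to 0.749), where 0.0223% of all genes (3) were called and 1180 had an unadjusted p under 0.05. These comparisons share their groups and are not independent of each other.

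**Figure D4:**
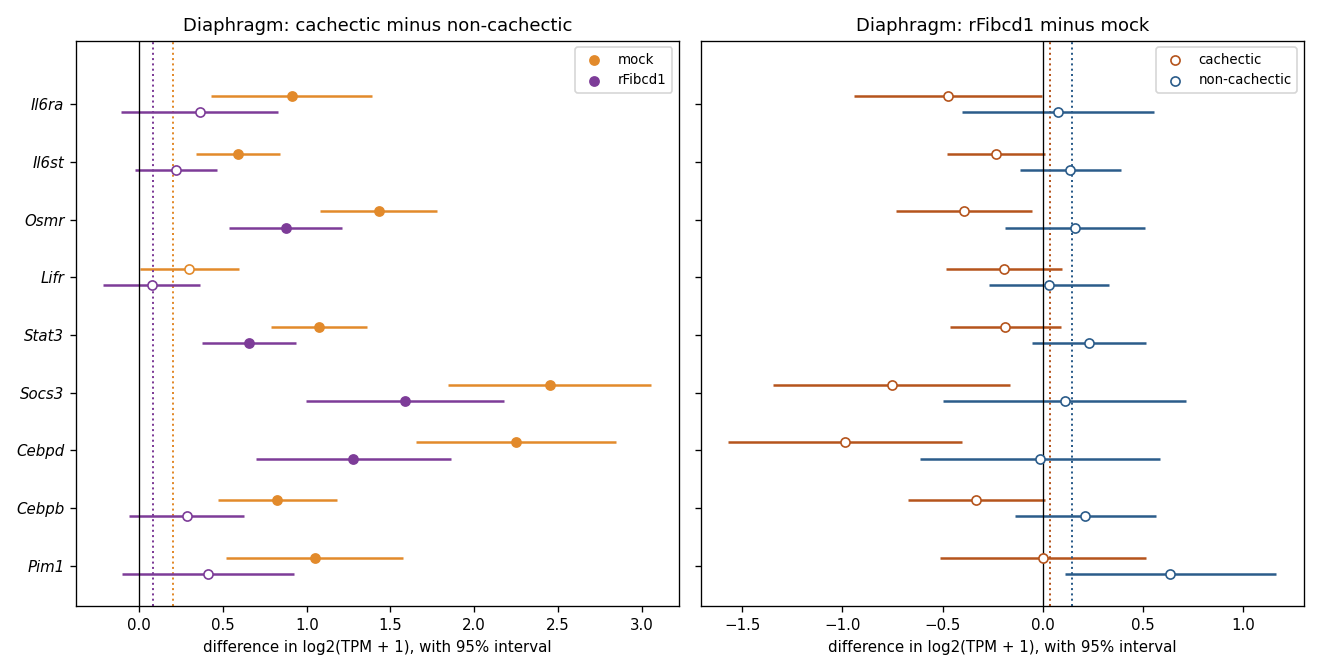
Log2 differences in diaphragm for each of the 9 genes (log2(TPM + 1) scale, 95% intervals as lines), between the melanomas with mock or rFibcd1 on the left and between rFibcd1 and mock with each melanoma on the right. Filled points passed the limma test, open points did not, and dotted lines are the medians of all genes tested. On the left Socs3 lay at 2.45 with mock and 1.59 with rFibcd1, and on the right every point is open, with Cebpd at -0.99 in the cachectic groups.

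The other genes of the pathway were listed by role, and 58 of 68 were tested in diaphragm and 52 in each limb muscle. In mock diaphragm 22 were higher and 2 lower (Ctf1 and Ccnd1), in TA 37 were higher and 2 lower (Ccnd1 and Ddit3), and in soleus 16 were higher and 6 lower (Cntfr, Ctf1, Ccnd1, Stat5b, Stat5a and Jak2). These counts stand beside 30.9%, 56.4% and 17.5% of all genes called higher in the same muscles, and the median log2 differences of the list (0.29, 0.51 and 0.11) beside those of all genes (0.20, 0.41 and 0.09). Among the ligands, Il6 reached 1 TPM in 1 of 59 libraries (4.28 TPM), Il11 in 0 (highest 0.346 TPM), and Lif and Osm in 2 each (highest 1.83 and 3.86 TPM). The highest values of Il6, Il11, Lif, Osm, Il27 and Ebi3 all came from cachectic rFibcd1 diaphragm library 1, which also had the highest summed level of macrophage markers (1456 TPM). Il27 reached 1 TPM in 1 library and Ctf2 in 0, and Il31 was listed at 0 in all 59. A ligand made elsewhere, including in the tumor, is outside what these libraries measure. The ligands that were present in muscle were Cntf, ciliary neurotrophic factor (median 5.02 TPM), and Ctf1, cardiotrophin, at 1 TPM or more in all 59 libraries, with Clcf1 in 49 and Ebi3 in 24. Cntf was higher with the cachectic melanoma in mock diaphragm (log2 difference 0.46, limma adjusted p = 0.0281), TA (0.87, adjusted p = 0.0205) and soleus (1.23, adjusted p = 0.0233). Ctf1 was lower in mock diaphragm (-0.38, adjusted p = 0.0277) and soleus (-0.67, adjusted p = 0.0115). Of the further receptor chains, Il11ra1 (interleukin-11) was higher in mock diaphragm (0.18, adjusted p = 0.039) and TA (0.37, adjusted p = 0.019), both below the medians of all genes there (0.20 and 0.41), Cntfr was lower in soleus (-0.52, adjusted p = 0.00428), Il27ra reached 1 TPM in 44 libraries and Il31ra in 0.

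Downstream of the receptors, the 9 tested kinase and STAT genes other than Stat3 gave 1 call in mock diaphragm, higher, 8 in TA, higher, and 1 higher and 3 lower in soleus. Jak3 was the one higher in mock diaphragm and soleus (log2 differences of 0.93 and 0.85), and it was at 1.51 in TA. The soleus falls were those of Stat5a (-0.80), Stat5b (-0.61) and Jak2 (-0.49). Of the other inhibitors, 5 of 15 were higher in mock diaphragm, 8 of 13 in TA and 2 of 13 in soleus, with the phosphatase gene Ptpn1 at 0.78, 0.81 and 0.65. The shares of all genes called higher apply to each of these lists. Of other STAT3 targets, 11 of 20 were higher and 1 lower in mock diaphragm, 14 and 1 of 19 in TA, and 11 and 1 of 19 in soleus, with median log2 differences of 0.60, 1.18 and 0.64. Lbp, an acute-phase binder of lipopolysaccharide, had log2 differences of 1.99, 2.66 and 1.75 in mock diaphragm, TA and soleus. The interleukin-4 receptor chain Il4ra was at 1.64, 2.19 and 1.65, and Junb, a subunit of the AP-1 factor, at 1.54, 2.17 and 1.60. The cyclin gene Ccnd1, which STAT3 can induce, was lower in each muscle (-0.81, -0.71 and -0.89). Among paralogues of the targets 3 of 6 were higher in mock diaphragm, 5 higher and 1 lower of 6 in TA and 1 of 5 higher in soleus, with Pim3 at 0.83, 1.08 and 0.64. Under median-ratio scaling Pim3 did not pass in mock diaphragm (0.61, adjusted p = 0.0679), and Ccnd1 did not in the high-state diaphragm libraries alone (-0.81, adjusted p = 0.200).

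**Figure D5:**
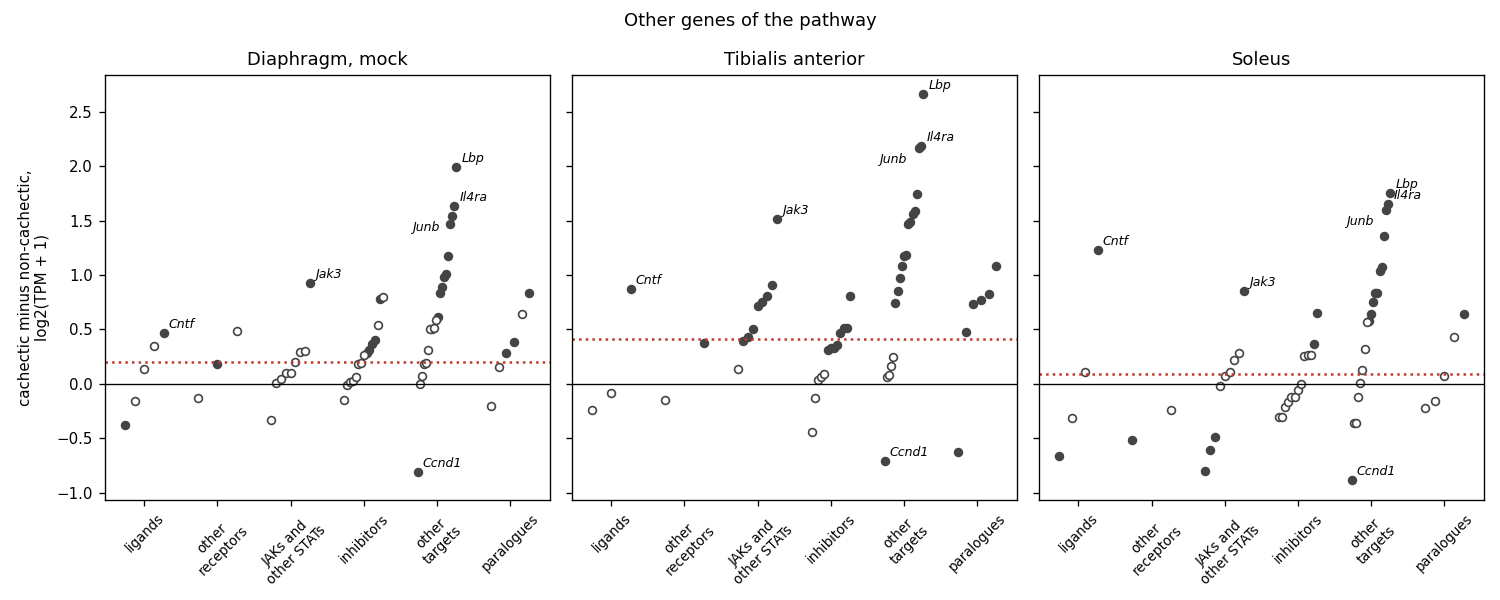
Log2 difference between the melanomas for every tested pathway gene other than the 9, in mock diaphragm, TA and soleus (log2(TPM + 1) scale), in columns by role. Filled points passed the limma test, open points did not, and the dotted line is the median of all genes tested. Lbp (1.99, 2.66 and 1.75), Il4ra and Junb stood at the top of the other targets in each muscle and Ccnd1 at the bottom.

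Within groups the 9 genes tended to vary in the same direction across the 39 diaphragm libraries, to unequal degrees. No value over pairs of all genes was taken for comparison. After the group mean was subtracted, the 36 pairs had a median Pearson r of 0.48 on the log2(TPM + 1) scale, and 35 were positive. Stat3 went with Osmr (r = 0.85, Spearman rho = 0.86) and with Il6st (r = 0.85, rho = 0.87), and less closely with Socs3 (r = 0.68, rho = 0.67). Without the 2 libraries farthest from the median of Stat3 these were 0.85, 0.83 and 0.75. Within the 26 high-state and the 13 low-state libraries Stat3 and Osmr gave r = 0.82 and 0.79, so that this relation held in both states, whereas Stat3 and Socs3 gave 0.32 in the low state. The weakest pairs were Il6st and Cebpb (r = 0.096), Lifr and Cebpd (0.0098), Cebpb and Pim1 (0.0086) and Lifr and Cebpb (-0.033). By the same measure over all genes, the profiles most like Stat3 were those of Xdh (r = 0.90), Ap3d1 (0.87) and Rad23b (0.87), and those most like Osmr were Serinc3 (0.89), Cpne8 (0.88) and Slc3a2 (0.85). Socs3 was most like Ifitm2 (0.87), Ankrd10 (0.85) and Ctps (0.83), and Cebpd most like Eif4ebp1 (0.84), Cnksr1 (0.83) and Dusp26 (0.83). These correlations are descriptions over libraries that share their scaling to a fixed total, and they carry no test.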

How the data were processed

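RNA was sequenced from 59 muscle samples. Per the study's methods, the authors mapped reads with CLC Genomics Workbench to the mouse genome (mm10 per the labels) and deposited 1 table of TPM, without counts. The annotation and the use of strand are not given in the sources used here, and the labels and the methods name different library kits and instruments. Columns were assigned to groups by name. Genes with TPM of at least 1 in as many libraries as the smallest group were fitted with limma 3.58.1 (R 4.3.3, eBayes with trend) on log2(TPM + 1), a scale that understates changes of low genes, with 2-sided tests and Benjamini-Hochberg adjustment over all genes tested at 0.05. The 4 diaphragm groups, each limb muscle, and all libraries without rFibcd1 were fitted separately. The fit was tested on simulated data. The authors' Kruskal-Wallis and Dunn approach was an alternative, with others for the pseudocount (0.1), filter (none, or a mean TPM of 5), scaling, library state, groups fitted and each library left out. The 9 genes and all lists were chosen with earlier results of these data known. Named genes were the 9, the ligands and further receptors, the 3 highest and lowest calls per other list, the 3 most similar profiles to Stat3, Socs3, Cebpd and Osmr, and cell type markers, apart from a ligand result left out here. Gene positions follow GENCODE M21 and promoter sequences from RefSeq. Values were summarised with Python 3.11.15, pandas 2.3.3 and numpy 2.4.6.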

Additional observations from a re-analysis of the deposited data

Results flagged for a closer look

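In 8 of 72 combinations of gene and group, 1 library stood apart by Dixon's test (chance gives about 1 in 20). In cachectic TA, library 8 was apart for Il6st (152 TPM, next 66.1) and Osmr (19.9 TPM, next 7.70), and in cachectic soleus library 8 was apart for Stat3 (72.1 TPM, next 51.4). In the diaphragm, Il6ra stood at 39.2 TPM in cachectic mock library 20 (next 18.5), Lifr at 17.5 TPM in non-cachectic mock library 64 (next 12.1) and Cebpd at 17.1 TPM in non-cachectic rFibcd1 library 57 (next 8.98). In non-cachectic TA, Il6ra was at 2.23 TPM in library 62 (next 1.19), and Socs3 was low, at 1.41 TPM, in library 63 (next 1.98).

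In 7 cases the melanoma difference itself was called as different between muscles (limma interaction, adjusted p under 0.05). On the log2 scale, mock diaphragm minus TA was -1.05 for Stat3 and -1.33 for Socs3, beside 5.04% of all genes called. Mock diaphragm minus soleus was 0.68 for Lifr, beside 2.52%. TA minus soleus was 1.503 for Il6ra, 0.99 for Il6st, 0.96 for Stat3 and 0.62 for Lifr, beside 20.4%. The calls of Socs3, of Il6ra and of Lifr in both contrasts were each lost when a single library was left out.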

How the results depend on the processing

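The calls of Socs3, Cebpd, Osmr and Stat3 between the melanomas in mock diaphragm, TA and soleus held in all 320 fits of these 12 results (highest adjusted p = 0.0451). The number of the 9 genes called for the melanoma difference with rFibcd1 was 0 in high-state libraries and 0 by Dunn tests. For rFibcd1 against mock it was 1 with the cachectic melanoma in high-state libraries (Cebpd, beside 5.57% of all genes) and 1 with the non-cachectic melanoma when only the 2 groups were fitted (Pim1, beside 19.6%). For mock diaphragm against TA it was 4 with a pseudocount of 0.1 and 1 without a filter, and for the non-cachectic TA against soleus it was 1 under median-ratio scaling. Signs turned for Pim1 under rFibcd1 with the cachectic melanoma (-0.0055 with a pseudocount of 0.1, -0.026 under scaling). Under scaling they also turned for Lifr in TA (-0.22), for Il6st (-0.32), Lifr (-0.29) and Cebpd (-0.17) between non-cachectic diaphragm and TA, and for Lifr (0.15) and Cebpd (0.53) between non-cachectic TA and soleus. The median of the 9 genes for rFibcd1 against mock with the non-cachectic melanoma went from 0.14 to -0.04. For the melanoma difference in diaphragm against soleus it went from 0.09 to -0.05. Signs therefore turned there as well, for genes that were not followed singly. The cause was not tested.

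With each library left out in turn, the count of the 9 genes called ranged from 8 to 9 in mock diaphragm, 4 to 5 with rFibcd1, 0 to 1 for rFibcd1 with the cachectic melanoma, 7 to 8 in soleus, 1 to 4 for diaphragm against TA, 0 to 2 for diaphragm against soleus, and 2 to 5 for TA against soleus. It was 4 to 5 and 6 to 7 for non-cachectic diaphragm against soleus and TA. Among the genes followed singly, signs turned for Lifr with rFibcd1 (-0.021 to 0.17), for Pim1 under rFibcd1 with the cachectic melanoma (-0.18 to 0.13) and for Cebpd between non-cachectic TA and soleus (-0.20 to 0.11).

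No paired analysis was possible because the groups compared within a muscle share no column numbers. Numbers are shared between muscles, where same-numbered libraries of 1 melanoma had a median correlation of 0.30 over 30 pairs (0.01 to 0.50, 28 over 0.1, other pairs -0.04), and the best match had its own number in 50 of 60 cases. With the number as a replicate block, 7 of the 9 genes were called for diaphragm against TA (16.2% of all genes) and 8 for TA against soleus (42% of all genes), where the labels do not state that a number marks an animal. Depth is unknown without counts, so no counting error can be given for the low values of Il6ra and Osmr in TA.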
